A study of Homo sapiens with 18 samples.

Results

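The 39 genes described here make sterols and fatty acids, control that synthesis or move sterol out of the cell. They were chosen by name, after FADS2 and SCD had been seen to stand lower in drug-treated MOLM-13 cells, and 38 of the 39 were analysed in each of 2 acute myeloid leukaemia lines. The 38 all passed the filter on low values, and ABCG1, a sterol exporter, was not analysed here. They are part of 17110 genes listed for HL-60 and 17475 listed for MOLM-13. By role, 7 belong to the mevalonate stage, 11 to the steps from squalene to sterol, 9 to fatty acid synthesis, 5 to the control of sterol regulatory element-binding proteins (SREBPs), 2 to lipid handling, and 2 are liver X receptors (LXRs); ABCA1, ABCG1 and MYLIP are LXR targets.

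HL-60 is a promyelocytic and MOLM-13 a monocytic acute myeloid leukaemia line, each an established culture. Each line was kept for 48 h in 1 of 3 conditions: DMSO, the solvent control; decitabine (DAC), a deoxycytidine analogue that traps DNA methyltransferases once built into DNA; or NTX-301, a nucleoside analogue directed at DNMT1. The 6 groups hold 3 samples each, 18 in all, taken at day 2. The stated dose is 30 nM in HL-60 and 15 nM in MOLM-13; its wording does not say whether it holds for both drugs or for decitabine alone, so a difference between the drugs is not one at a dose known to be equal. All values are log2 of the expression normalised by the authors within a line. The labels say of the 3 samples of a group only that treatment was in triplicate, not how far the cultures were separate, so p-values measure only the spread between these samples.

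Of 6 myeloid marker genes all 6 were listed in both lines, at log2 values from 11.5 to 18.7 in HL-60 and 11.9 to 17.3 in MOLM-13. Of 11 markers of other cell types 0 were listed in HL-60 and 4 in MOLM-13 (CD3D, HBB, KRT18 and COL1A1, from 5.81 to 9.43); their part in the results was not tested. The median SD of a member over the 3 samples of a group was 0.023 to 0.034 in HL-60 and 0.039 to 0.045 in MOLM-13. Sequencing depth is unknown, because the deposited values were already normalised. In such whole-culture RNA, fewer cells that express a gene and less RNA of it per cell cannot be told apart.

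SREBPs are transcription factors made as membrane proteins and carried, by their escort SCAP, from the endoplasmic reticulum to the Golgi, where proteases release the active part. When sterol is plentiful, INSIG proteins hold SCAP back and the targets of SREBPs are transcribed less. SREBF1 encodes the forms known mainly for fatty acid genes, and SREBF2 the form known mainly for cholesterol genes. LXRs, encoded by NR1H2 and NR1H3, are nuclear receptors that bind oxidised sterols and switch on export (ABCA1, ABCG1) and removal of lipoprotein receptors (MYLIP). SREBF1, SCD and FASN respond to both systems and were therefore not counted as LXR targets. The 30 genes called SREBP targets below are the enzymes of the 3 synthesis stages together with INSIG1, STARD4 and LPIN1.

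The bases before the transcription start of 6 members are shown. They were picked by hand from genes that moved, in either direction, with SREBF2 added for its classic sterol element. Other members with a window and large changes, such as FADS2 and CYP51A1, are not shown. Each window is the 250 bases before the start, 5′ to 3′ on the gene's strand, from RefSeq's table of GRCh38.p14, which is not the build of the expression files. Capitals mark a CCAAT box or its reverse ATTGG, an E-box, or a sterol regulatory element.
FADS1 chr11:61817004-61817253, minus strand: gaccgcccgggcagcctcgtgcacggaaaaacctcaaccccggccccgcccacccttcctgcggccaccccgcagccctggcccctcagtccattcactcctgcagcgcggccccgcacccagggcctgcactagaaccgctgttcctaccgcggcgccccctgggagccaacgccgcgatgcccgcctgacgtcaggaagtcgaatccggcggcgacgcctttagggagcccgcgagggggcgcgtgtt
SCD chr10:100346983-100347232, plus strand: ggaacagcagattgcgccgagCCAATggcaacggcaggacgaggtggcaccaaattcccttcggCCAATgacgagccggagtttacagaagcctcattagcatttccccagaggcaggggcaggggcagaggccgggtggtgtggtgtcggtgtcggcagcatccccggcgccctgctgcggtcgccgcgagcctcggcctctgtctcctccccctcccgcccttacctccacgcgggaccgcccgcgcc
INSIG1 chr7:155297628-155297877, plus strand: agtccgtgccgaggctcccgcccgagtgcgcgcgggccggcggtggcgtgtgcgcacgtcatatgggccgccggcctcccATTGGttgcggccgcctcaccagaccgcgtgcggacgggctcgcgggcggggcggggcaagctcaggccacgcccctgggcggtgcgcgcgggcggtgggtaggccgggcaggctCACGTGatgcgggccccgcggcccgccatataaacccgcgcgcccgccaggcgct
MVD chr16:88663092-88663341, minus strand: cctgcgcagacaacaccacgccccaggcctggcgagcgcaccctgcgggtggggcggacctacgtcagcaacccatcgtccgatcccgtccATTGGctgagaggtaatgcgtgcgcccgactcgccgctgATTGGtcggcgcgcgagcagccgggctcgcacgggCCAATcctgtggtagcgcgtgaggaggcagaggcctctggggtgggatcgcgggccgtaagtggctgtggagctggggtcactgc
STARD4 chr5:111512536-111512785, minus strand: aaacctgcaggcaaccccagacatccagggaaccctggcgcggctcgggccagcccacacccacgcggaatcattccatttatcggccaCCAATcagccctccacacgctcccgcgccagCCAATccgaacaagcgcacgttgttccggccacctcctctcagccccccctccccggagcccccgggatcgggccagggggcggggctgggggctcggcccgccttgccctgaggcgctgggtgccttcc
SREBF2 chr22:41832855-41833104, plus strand: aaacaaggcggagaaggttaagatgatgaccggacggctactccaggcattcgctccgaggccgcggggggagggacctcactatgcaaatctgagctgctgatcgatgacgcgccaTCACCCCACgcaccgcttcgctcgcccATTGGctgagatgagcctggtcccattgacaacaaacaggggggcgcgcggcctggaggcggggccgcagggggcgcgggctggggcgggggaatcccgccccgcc

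Windows were found for 34 of the 39 members, 50 windows in all, and none for ABCG1, ACAT2, FASN, FDFT1 and SQLE. Each motif was sought on both strands in those 50 and in all 35116 windows of the table. The sterol regulatory element TCACNCCAC was in 1 of the 50 windows, that of SREBF2, as TCACCCCAC beginning 133 bases before the start, against 0.9% of all windows. The CCAAT box, bound by NF-Y, which works beside SREBPs, was in 54.0% of member windows and 32.0% of all, and in 23 of the 34 genes. The GC box GGGCGG, bound by SP1-type factors, was in 84.0% against 42.6%, and the E-box CACGTG in 12% against 6.3%. By gene, the GC box was in 32 of the 34 and the E-box in 5. Windows of the same gene can overlap, so the percentages can count a site more than once, as for the E-box of SC5D. The LXR element, which is AGGTCA, any NNNN and AGGTCA again, was in 0 of the 50 and in 5 of all windows. Neighbouring CCAAT boxes overlapped by 2 bases in IDI1 and NSDHL, and GC boxes overlapped in ACACA and INSIG1. Member windows were also richer in CpG, with a median of 23 CpG against 11. MVD held 3 CCAAT boxes, SCD and STARD4 held 2 each, INSIG1 and SREBF2 held 1, and FADS1 held none; a match or its absence in 250 bases says nothing of binding.

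Against DMSO, decitabine in HL-60 left most members not past the threshold. The mevalonate, squalene-to-sterol and fatty acid stages each held called changes in both directions. In limma with Benjamini-Hochberg adjustment over all genes, 6 of the 38 members rose and 5 fell, beside 11.6% of all genes higher and 12.6% lower, so both member counts lay near the background. Among all genes with a mean of 8 or more these shares were 14.2% and 19.4%. FADS1, a desaturase of polyunsaturated fatty acids, stood at 10.27, 10.08 and 10.05 in DMSO and 10.44, 10.44 and 10.38 with decitabine. All 3 decitabine samples lay above all 3 controls, among which replicate 1 stood highest. The log2 change was 0.29 (SE 0.047, adjusted p = 0.000583), and leaving out single samples moved it between 0.25 and 0.36 with the call kept. FADS2, the desaturase that acts before FADS1, stood at 9.24, 9.20 and 9.23 in DMSO and 9.38, 9.48 and 9.51 with decitabine. Its groups did not overlap, and it rose by 0.23 (SE 0.04, adjusted p = 0.000899). CYP51A1, the demethylase of lanosterol, stood at 13.17, 13.19 and 13.07 in DMSO and 13.33, 13.36 and 13.43 with decitabine. Again the groups were apart, and the change was 0.23 (SE 0.033, adjusted p = 0.000223). LPIN1, a phosphatidate phosphatase of glycerolipid synthesis, rose by 0.19 (SE 0.029, adjusted p = 0.000305). HMGCS1, the synthase that feeds the mevalonate stage, rose by 0.12 and EBP, the sterol isomerase, by 0.07 (adjusted p = 0.0457); the EBP call was kept only without DMSO replicate 2, NTX-301 replicate 2 or NTX-301 replicate 3, and lost on leaving out any of the other 6 samples of the line or with only the 2 compared groups in the fit.

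The members that fell with decitabine in HL-60 changed little. MVD, the decarboxylase that ends in isopentenyl diphosphate, stood at 10.10, 10.20 and 10.18 in DMSO and 9.96, 10.01 and 10.07 with decitabine. The lowest control lay just above the highest decitabine sample, and the log2 change was -0.15 (SE 0.039, adjusted p = 0.0154). LSS, which closes the sterol rings, stood at 12.90, 12.98 and 13.02 in DMSO and 12.84, 12.83 and 12.84 with decitabine, with a change of -0.13 (SE 0.028, adjusted p = 0.00397). NR1H2, the widely expressed LXR, stood at 11.18, 11.18 and 11.20 in DMSO and 11.07, 11.09 and 11.06 with decitabine and fell by 0.11 (SE 0.026, adjusted p = 0.0069), and every treated sample lay below every control. FDPS, the farnesyl diphosphate synthase, fell by 0.09 and ACACA, acetyl-CoA carboxylase, by 0.07. These 5 calls became 3 when DMSO replicate 2, decitabine replicate 1 or decitabine replicate 2 was left out: MVD and FDPS, MVD and ACACA, and FDPS and ACACA were then lost. MVD was also lost without DMSO replicate 3, and ACACA without DMSO replicate 1 or 3, after quantile normalisation and with only the 2 compared groups in the fit. Quantile normalisation gave 8 higher and 4 lower, beside 10.8% of all genes higher and 11.5% lower. By role, 1 mevalonate gene rose and 2 fell, 2 squalene-to-sterol genes rose and 1 fell, 2 fatty acid genes rose and 1 fell, 1 of the lipid handling genes rose, and of the SREBP control genes and LXR targets 0 passed in limma; INSIG2 and ABCA1 had an unadjusted p under 0.05 only. The 30 SREBP targets had a median change of 0.0019, the 2 LXR targets 0.02 and all genes 0.00064.

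NTX-301 in HL-60 lowered many more members: mevalonate enzymes, fatty acid synthase, stearoyl-CoA desaturase, INSIG1 and both LXR targets fell, while FADS1 and LPIN1 rose. In limma, 20 of the 38 members fell, above the 19.2% of all genes called lower, and 2 rose, beside 18.3% called higher. Genes of high level were called lower more often: among all genes whose mean over the 9 samples was 8 or more on the log2 scale, as for 35 of the members, 29.3% were lower and 20.5% higher. With each sample centred on its own median, which put the median change of all genes at -0.03, 35.5% of all genes were lower and 13.3% higher, and 25 members were lower and 2 higher. The plot of changes against DMSO shows each member by role.

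**Figure D1:**
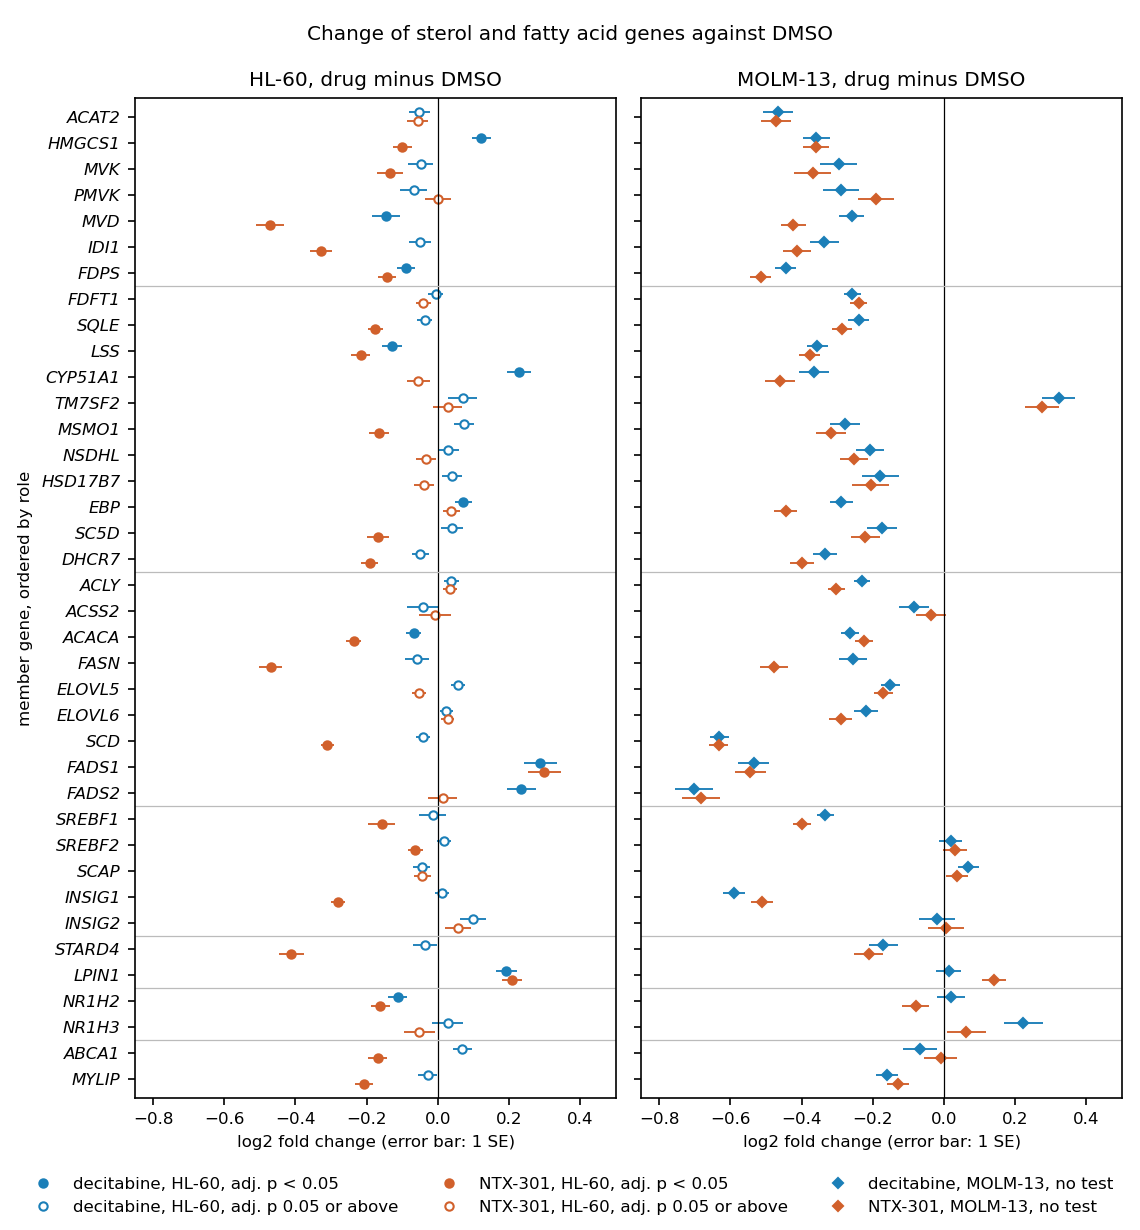
Log2 fold change of the 38 members against DMSO, ordered by role from mevalonate enzymes (top) to LXR targets (bottom), with bars of 1 SE from limma on 3 samples a group; filled circles in HL-60 have an adjusted p under 0.05, open circles do not, and the MOLM-13 diamonds carry no test because those comparisons chose the members. In HL-60 FADS1 lies at 0.29 and 0.30 and in MOLM-13 at -0.53 and -0.54.

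In the mevalonate stage 5 of 7 members fell with NTX-301 in HL-60. MVD stood at 10.10, 10.20 and 10.18 in DMSO and 9.64, 9.71 and 9.72 with NTX-301, with no overlap. Its log2 change was -0.47 (SE 0.039, adjusted p = 4.83e-07). IDI1, the isomerase of the next step, fell by 0.33 (SE 0.03, adjusted p = 1.44e-06), FDPS by 0.14, MVK by 0.13 and HMGCS1 by 0.10, a call lost after quantile normalisation. PMVK at 0.0007 and ACAT2 at -0.06 did not pass the threshold. From squalene to sterol 5 of 11 fell and 0 rose: LSS by 0.22, DHCR7, the last reductase, by 0.19, SQLE, the epoxidase, by 0.18, and SC5D and MSMO1 by 0.17 each. CYP51A1, which rose with decitabine, stood at 13.10, 13.10 and 13.06 with NTX-301, overlapping the controls, with a change of -0.05 (SE 0.033). The other 5, FDFT1, TM7SF2, NSDHL, HSD17B7 and EBP, lay between -0.04 and 0.04 and did not pass.

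Among the 9 fatty acid genes 3 fell and 1 rose. FASN, the fatty acid synthase, stood at 15.58, 15.56 and 15.69 in DMSO and 15.12, 15.16 and 15.13 with NTX-301. No treated sample came within the range of the controls, and the change was -0.47 (SE 0.033, adjusted p = 1.05e-07). SCD, which places the first double bond in stearate, stood at 15.42, 15.39 and 15.36 in DMSO and 15.10, 15.07 and 15.07 with NTX-301. The 3 treated samples lay close together and below the controls, and the change was -0.31 (SE 0.019, adjusted p = 2.41e-08). ACACA fell by 0.24. FADS1 went the other way, to 10.45, 10.41 and 10.43, all above the controls, rising by 0.30 (SE 0.047, adjusted p = 0.000174). FADS2 stood at 9.18, 9.24 and 9.28 and overlapped the controls at 9.24, 9.20 and 9.23; its change was 0.013 (SE 0.04), turning to -0.02 after centring and -0.03 after quantile normalisation. ACLY, ACSS2, ELOVL5 and ELOVL6 lay between -0.05 and 0.03 without passing.

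**Figure D2:**
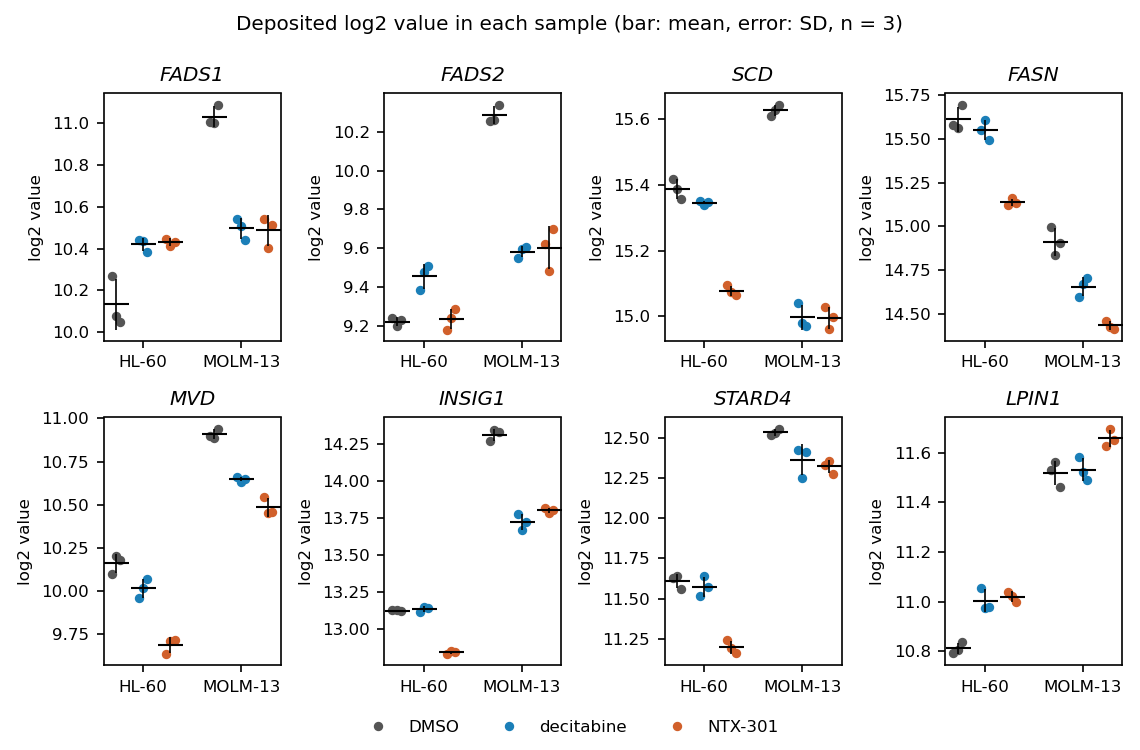
Deposited log2 value of FADS1, FADS2, SCD, FASN, MVD, INSIG1, STARD4 and LPIN1 in each sample (points), with the mean and SD of 3 samples per group, by line and by treatment; each panel has its own axis, which does not start at 0. The HL-60 samples with NTX-301 lie below the DMSO samples for FASN, MVD, INSIG1, STARD4 and SCD and above them for FADS1 and LPIN1.

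STARD4, a carrier that moves cholesterol between membranes, stood at 11.63, 11.64 and 11.56 in DMSO and 11.24, 11.19 and 11.16 with NTX-301 in HL-60. The groups were far apart for their spread, and the change was -0.41 (SE 0.035, adjusted p = 5.81e-07). LPIN1 stood at 10.79, 10.80 and 10.83 in DMSO, 11.06, 10.98 and 10.98 with decitabine and 11.04, 11.02 and 11.00 with NTX-301. Both drugs lay above the controls, which they share, and the NTX-301 change was 0.21 (SE 0.029, adjusted p = 6.3e-05). Of the SREBP control genes 3 of 5 fell. INSIG1, itself a classic SREBP target, stood at 13.12, 13.13 and 13.12 in DMSO, 13.11, 13.15 and 13.14 with decitabine and 12.83, 12.85 and 12.84 with NTX-301. Only the NTX-301 samples stood apart, and they fell by 0.28 (SE 0.019, adjusted p = 8.25e-08); the decitabine change was 0.01 (SE 0.019). SREBF1 stood at 12.30, 12.33 and 12.42 in DMSO, 12.37, 12.39 and 12.25 with decitabine and 12.16, 12.18 and 12.23 with NTX-301. The NTX-301 samples lay below both other groups, and the change against DMSO was -0.16 (SE 0.038, adjusted p = 0.00439), while that of decitabine was -0.014 (SE 0.038). SREBF2 stood at 13.87, 13.86 and 13.90 in DMSO, 13.91, 13.90 and 13.87 with decitabine and 13.81, 13.84 and 13.79 with NTX-301, and it fell with NTX-301 by 0.06 (SE 0.02, adjusted p = 0.0256). That call was lost without DMSO replicate 3, NTX-301 replicate 1 or NTX-301 replicate 3 and after quantile normalisation, which gave -0.01. SCAP at -0.04 (SE 0.023) and INSIG2 at 0.06 (SE 0.037) did not pass.

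The LXR targets fell, like 15 of the 30 SREBP targets, in HL-60 with NTX-301. ABCA1, the exporter of cholesterol and phospholipid, stood at 11.79, 11.79 and 11.84 in DMSO, 11.90, 11.89 and 11.83 with decitabine and 11.63, 11.67 and 11.61 with NTX-301. The NTX-301 samples lay below all others, with a change of -0.17 (SE 0.027, adjusted p = 0.000206); the decitabine change was 0.07 (SE 0.027) and did not pass. MYLIP, a ubiquitin ligase that marks lipoprotein receptors for destruction, stood at 11.67, 11.64 and 11.65 in DMSO, 11.64, 11.62 and 11.63 with decitabine and 11.44, 11.41 and 11.49 with NTX-301. Its NTX-301 samples also lay below the rest, and it fell by 0.21 (SE 0.026, adjusted p = 1.91e-05). Of the receptors, NR1H2 stood at 11.04, 10.98 and 11.05 with NTX-301 and changed by -0.16 (SE 0.026, adjusted p = 0.000224). NR1H3, the LXR of macrophages and liver, was lower in level, at 7.32, 7.46 and 7.40 in DMSO, 7.45, 7.42 and 7.39 with decitabine and 7.29, 7.33 and 7.40 with NTX-301, and the 3 groups overlapped. Side by side, 15 of the 30 SREBP targets fell and 2 rose, with a median change of -0.08, while both analysed LXR targets fell, with a median of -0.19; the median of all genes was 0.00082. After centring these medians were -0.11 and -0.22. The LXR value rests on 2 genes, and the difference between the lists was not tested.

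**Figure D3:**
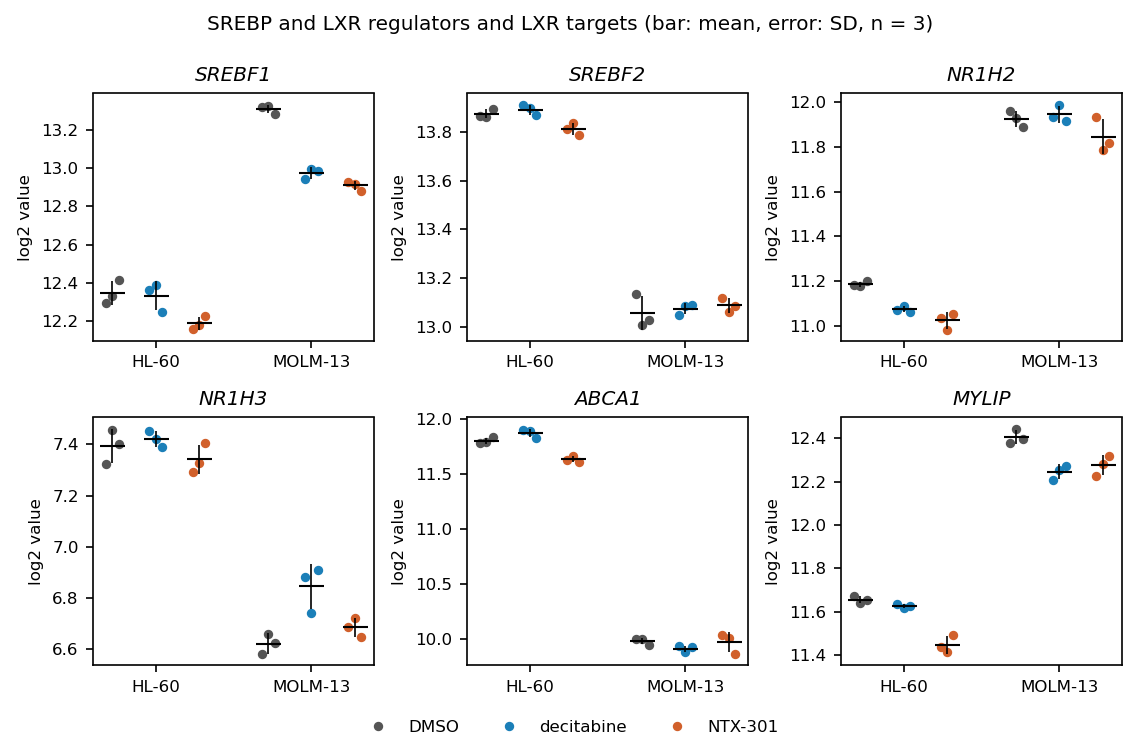
Deposited log2 value of SREBF1, SREBF2, NR1H2, NR1H3, ABCA1 and MYLIP in each sample (points), with the mean and SD of 3 samples per group, by line and treatment, on axes that do not start at 0. The lines were normalised separately, so the distance between HL-60 and MOLM-13 in a panel is not a measured difference; within HL-60 the NTX-301 samples of ABCA1, MYLIP and SREBF1 lie below the DMSO samples.

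Set directly against each other in HL-60, NTX-301 left 20 members lower than decitabine did and 0 higher, in limma at an adjusted p under 0.05, beside 15.0% of all genes lower and 15.4% higher. At an unadjusted p under 0.05 the counts were 22 and 0, beside 3295 lower and 3492 higher of all 17046 genes. After centring, 28 members were lower and 0 higher, beside 33.8% and 10.2% of all genes; among genes with a mean of at least 8 the main comparison gave 22.1% lower and 19.7% higher. FASN stood at 15.55, 15.61 and 15.49 with decitabine and 15.12, 15.16 and 15.13 with NTX-301, apart from each other, with a difference of -0.41 (SE 0.033, adjusted p = 6.81e-07). STARD4 stood at 11.51, 11.64 and 11.57 with decitabine and 11.24, 11.19 and 11.16 with NTX-301. It differed by -0.37 (SE 0.035, adjusted p = 2.35e-06) and MVD by -0.33 (SE 0.039, adjusted p = 2.53e-05). INSIG1, at 13.11, 13.15 and 13.14 with decitabine and 12.83, 12.85 and 12.84 with NTX-301, was lower by 0.29 (SE 0.019, adjusted p = 1.12e-07). CYP51A1 was -0.28 (SE 0.033, adjusted p = 2.11e-05) and FADS2 -0.22 (SE 0.04, adjusted p = 0.00089) from decitabine to NTX-301; both rose with decitabine and did not pass the threshold with NTX-301, as did EBP, which was not called between the drugs. SCD was lower by 0.27, ABCA1 by 0.24 and MYLIP by 0.18, each with groups that did not overlap.

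By role, 3 of 7 mevalonate genes, 6 of 11 squalene-to-sterol genes, 5 of 9 fatty acid genes, 3 of 5 SREBP control genes, 1 of 2 lipid handling genes and both analysed LXR targets were lower with NTX-301 than with decitabine in HL-60, and neither LXR receptor passed. Of the 30 SREBP targets 16 were lower, with a median difference of -0.10, against -0.21 for the 2 LXR targets and 0.00045 for all genes. FADS1, at 0.011 (SE 0.047), and LPIN1, at 0.02 (SE 0.029), did not pass the threshold between the drugs. SREBF1 was lower by 0.14 and SREBF2 by 0.08; the first call was lost without decitabine replicate 2, the second after quantile normalisation. The LSS call, at -0.09, was lost without any 1 of the decitabine samples or without NTX-301 replicate 1, after quantile normalisation and without the mean-variance trend. CCAAT boxes were in 15 of the 18 members with a window that fell with NTX-301 against DMSO, 8 of the 14 not past the threshold and 0 of the 2 that rose, LPIN1 and FADS1. For NTX-301 against decitabine they were in 14 of 18 lower members and 9 of 16 others. For decitabine against DMSO in HL-60 they were in 4 of 5 lower members, 2 of 6 higher and 17 of 23 others. Against DMSO in MOLM-13, as a description, CCAAT boxes were in 19 of 25 lower members with each drug. There they were in 2 of 2 higher members and 2 of 7 others with decitabine, and 1 of 2 and 3 of 7 with NTX-301. These are counts in short windows and carry no test.

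**Figure D4:**
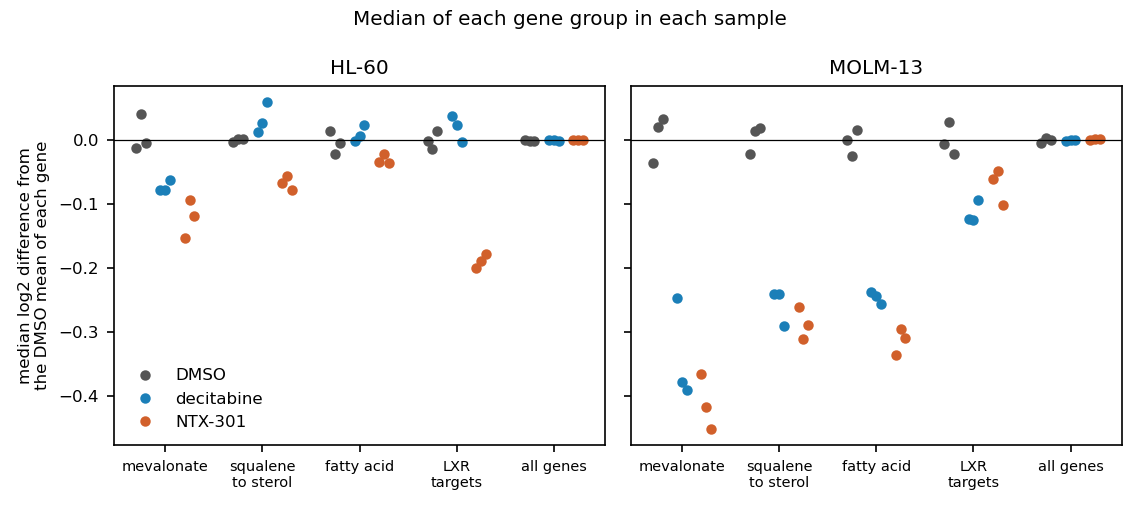
Median over each gene group of the difference from that gene's DMSO mean (log2), 1 point per sample, for the mevalonate, squalene-to-sterol and fatty acid genes, the 2 LXR targets and all genes of the line. In HL-60 the LXR targets lie between -0.20 and -0.18 in the NTX-301 samples, and in MOLM-13 the synthesis groups lie lower than the LXR targets in every treated sample.

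In MOLM-13 both drugs were set against DMSO in the comparisons that led to the choice of these genes, so the values are a description and no test is drawn on. Nearly all synthesis enzymes stood lower with either drug, FADS2 and SCD most, and SREBF2, SCAP and INSIG2 stood near their control level. As a count only, from which nothing is read and which includes FADS2 and SCD, 29 members were past the limma threshold and lower and 2 higher with decitabine, beside 21.2% of all genes lower and 15.4% higher, and 29 were lower and 2 higher with NTX-301, beside 24.8% and 20.3%. Among all genes with a mean of at least 8, 32.9% were lower and 16.9% higher with decitabine and 38.4% and 20.7% with NTX-301. After centring, 30 members were lower and 2 higher with each drug, beside 32.8% lower and 11.2% higher of all genes with decitabine and 33.0% and 15.7% with NTX-301. Both comparisons share the DMSO samples.

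FADS2 stood at 10.26, 10.26 and 10.34 in DMSO, 9.55, 9.60 and 9.60 with decitabine and 9.62, 9.48 and 9.70 with NTX-301 in MOLM-13. Every treated sample lay well below every control, with log2 changes of -0.70 (SE 0.053) for decitabine and -0.68 (SE 0.053) for NTX-301. SCD stood at 15.61, 15.63 and 15.64 in DMSO, 15.04, 14.98 and 14.97 with decitabine and 15.03, 14.96 and 15.00 with NTX-301, with changes of -0.63 (SE 0.026) and -0.63 (SE 0.026). The treated groups overlapped each other and neither overlapped the controls. INSIG1 stood at 14.27, 14.34 and 14.33 in DMSO, 13.78, 13.67 and 13.72 with decitabine and 13.82, 13.78 and 13.80 with NTX-301, with changes of -0.59 (SE 0.03) and -0.51 (SE 0.03). FADS1 stood at 11.01, 11.00 and 11.09 in DMSO, 10.54, 10.51 and 10.44 with decitabine and 10.54, 10.41 and 10.51 with NTX-301, with changes of -0.53 (SE 0.044) and -0.54 (SE 0.044), so that the gene that rose with both drugs in HL-60 stood lower with both here. All 7 mevalonate genes were lower, from -0.47 for ACAT2, the thiolase of the first step, to -0.26 for MVD with decitabine, and from -0.51 for FDPS to -0.19 for PMVK, the phosphomevalonate kinase, with NTX-301.

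From squalene to sterol 10 of 11 members stood lower in MOLM-13 with each drug, and their groups lay wholly below the controls, as did 24.9% of all genes with decitabine and 28.6% with NTX-301. The exception was TM7SF2, a sterol reductase whose step the lamin B receptor can also carry out, at 9.11, 9.09 and 9.0 in DMSO, 9.40, 9.41 and 9.35 with decitabine and 9.39, 9.34 and 9.29 with NTX-301, higher by 0.32 (SE 0.047) and 0.28 (SE 0.047). CYP51A1 stood at 13.11, 13.24 and 13.23 in DMSO, 12.91, 12.79 and 12.80 with decitabine and 12.79, 12.70 and 12.71 with NTX-301, with changes of -0.36 (SE 0.042) and -0.46 (SE 0.042). As a count only, which includes FADS2 and SCD, 8 of 9 fatty acid genes were past the threshold and lower with each drug. Of all genes, 21.2% were so with decitabine and 24.8% with NTX-301. ACSS2, which makes acetyl-CoA from acetate, was not past it, at -0.08 (SE 0.042) and -0.04 (SE 0.042). FASN stood at 15.00, 14.84 and 14.91 in DMSO, 14.60, 14.67 and 14.70 with decitabine and 14.46, 14.43 and 14.42 with NTX-301, the NTX-301 samples lowest, with changes of -0.26 (SE 0.039) and -0.48 (SE 0.039). STARD4 changed by -0.17 (SE 0.042) and -0.21 (SE 0.042). LPIN1 stood at 11.53, 11.56 and 11.46 in DMSO, 11.58, 11.52 and 11.49 with decitabine and 11.63, 11.70 and 11.65 with NTX-301, overlapping the controls with decitabine and above them with NTX-301.

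Among the regulators in MOLM-13, SREBF1 stood at 13.32, 13.32 and 13.28 in DMSO, 12.94, 13.00 and 12.99 with decitabine and 12.93, 12.92 and 12.88 with NTX-301, lower in every treated sample, with changes of -0.33 (SE 0.025) and -0.40 (SE 0.025). SREBF2 stood at 13.13, 13.01 and 13.03 in DMSO, 13.05, 13.09 and 13.09 with decitabine and 13.12, 13.06 and 13.08 with NTX-301, and the 3 groups overlapped, with changes of 0.02 (SE 0.033) and 0.03 (SE 0.033). SCAP changed by 0.07 (SE 0.031) and 0.04 (SE 0.031), and INSIG2 by -0.02 (SE 0.05) and 0.0052 (SE 0.05). NR1H3 stood at 6.58, 6.66 and 6.62 in DMSO, 6.88, 6.74 and 6.91 with decitabine and 6.69, 6.72 and 6.65 with NTX-301, with the decitabine samples above the controls and changes of 0.22 (SE 0.054) and 0.06 (SE 0.054). NR1H2 changed by 0.02 (SE 0.039) and -0.08 (SE 0.039). ABCA1 stood at 10.00, 10.00 and 9.95 in DMSO, 9.93, 9.88 and 9.92 with decitabine and 10.04, 10.01 and 9.87 with NTX-301, with changes of -0.07 (SE 0.047) and -0.0096 (SE 0.047). MYLIP stood at 12.38, 12.44 and 12.40 in DMSO, 12.21, 12.25 and 12.27 with decitabine and 12.23, 12.28 and 12.32 with NTX-301, lower in all treated samples, with changes of -0.16 (SE 0.031) and -0.13 (SE 0.031).

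Side by side in MOLM-13, the 30 SREBP targets had medians of -0.27 for decitabine and -0.34 for NTX-301. As a count only, which includes FADS2 and SCD, 27 of the 30 were past the threshold and lower with each drug. With decitabine 1 was higher, and with NTX-301 2 were. Of all genes, 21.2% were lower and 15.4% higher with decitabine, and 24.8% and 20.3% with NTX-301. Of the 2 LXR targets 1, MYLIP, was past the threshold and lower with each drug. The LXR target medians were -0.11 and -0.07, and the medians of all genes were 0.0013 and 0.0034. In the HL-60 samples with NTX-301 the order of the medians was the other way round, -0.08 for SREBP targets against -0.19 for LXR targets. After centring, the MOLM-13 medians were -0.31 and -0.15 for decitabine and -0.37 and -0.10 for NTX-301. The lists were not tested against each other, nor was either line against the other.

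Between the 2 drugs in MOLM-13 few members differed. In limma 3 were lower with NTX-301 than with decitabine and 1 was higher, beside 4.41% of all genes lower and 3.01% higher. At an unadjusted p under 0.05, 9 members were lower and 2 higher, beside 2237 lower and 1771 higher of all 17475 genes. Among all genes with a mean of at least 8, 6.68% were lower and 4.11% higher. With quantile normalisation the split was 3 lower and 2 higher, beside 4.09% of all genes lower and 3.70% higher. FASN stood at 14.60, 14.67 and 14.70 with decitabine and 14.46, 14.43 and 14.42 with NTX-301, with no overlap, and differed by -0.22 (SE 0.039, adjusted p = 0.00766); this call was kept on leaving out each of the 9 samples in turn. MVD stood at 10.66, 10.63 and 10.65 with decitabine and 10.55, 10.45 and 10.46 with NTX-301 and differed by -0.16 (SE 0.035, adjusted p = 0.0178). EBP stood at 12.20, 12.23 and 12.11 with decitabine and 12.04, 12.01 and 12.03 with NTX-301 and differed by -0.16 (SE 0.031, adjusted p = 0.013). LPIN1 was higher with NTX-301, by 0.13 (SE 0.035, adjusted p = 0.0478), but the call was kept only without DMSO replicate 3 or decitabine replicate 1, and lost on leaving out any of the other 7 samples, without the mean-variance trend or with only the 2 compared groups in the fit. Only FASN was still called lower without NTX-301 replicate 2 or without NTX-301 replicate 3, where MVD (-0.15 in both) and EBP (-0.15 and -0.16) were lost; MVD was also lost without decitabine replicate 1. FASN and MVD were thus lower with NTX-301 than with decitabine in both lines. INSIG1 differed by 0.08 (SE 0.03), SREBF1 by -0.06 (SE 0.025) and NR1H3 by -0.16 (SE 0.054), none past the threshold. Of the SREBP targets 3 were lower and 1 higher, with a median of -0.04, and 0 of the 2 LXR targets passed in limma, and 0 had an unadjusted p under 0.05, with a median of 0.04.

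Genes around the pathway were counted from lists of other genes, mainly in the comparisons that did not choose the members. Any count of them against DMSO in MOLM-13 is a description. In HL-60 the shares of all genes called higher and lower were 11.6% and 12.6% with decitabine, 18.3% and 19.2% with NTX-301, and 15.4% and 15.0% between the drugs; in MOLM-13 they were 3.01% and 4.41% between the drugs. These lists are short, so a count of 1 or 2 is no result about a list. Of 7 genes for the processing of SREBPs and the degradation of their partners, 5 fell and 0 rose with NTX-301 against DMSO in HL-60. With decitabine 0 of the 7 passed the limma threshold, and 2 were lower and 0 higher at an unadjusted p under 0.05. Of all 17046 genes, 3122 were lower and 2927 higher at that unadjusted level. ERLIN1, a scaffold of the sterol-driven degradation machinery, fell by 0.25 with NTX-301 (limma, adjusted p = 8.04e-07). Against decitabine 4 of the 7 were lower with NTX-301 in HL-60; in MOLM-13 limma called 0, and 0 were at an unadjusted p under 0.05. Of 12 genes of cholesterol trafficking and storage 5 fell and 2 rose with NTX-301 in HL-60, and 1 rose with decitabine. VLDLR, a lipoprotein receptor that MYLIP marks for degradation, rose with decitabine by 0.16 (adjusted p = 0.00187), fell with NTX-301 by 0.26 (adjusted p = 1.01e-05) and was -0.42 between the drugs (adjusted p = 2.29e-07). SOAT1, which esterifies cholesterol for storage, was higher with NTX-301 than with decitabine in HL-60 by 0.29. In MOLM-13, 1 of the 12 was lower with NTX-301 than with decitabine, NCEH1, at -0.11, and 0 were higher. Of 7 partners and other targets of LXRs, 4 were tested in HL-60 and 7 in MOLM-13. PLTP, a phospholipid transfer protein, rose in HL-60 by 0.14 under decitabine (adjusted p = 0.00214) and RXRA, the partner receptor of LXRs, by 0.16 with NTX-301 (adjusted p = 0.000317); with decitabine 2 rose and 1 fell, with NTX-301 1 rose and 0 fell, and between the drugs 1 was higher and 2 lower in HL-60. APOC1, an apolipoprotein under LXR control, was the 1 of the 7 called between the drugs in MOLM-13, at -0.30 (adjusted p = 0.00766).

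Fatty acid activation, elongation and glycerolipid synthesis were followed through 27 other genes, of which 21 were tested in HL-60 and 23 in MOLM-13. In HL-60 5 rose and 2 fell with decitabine, and 7 rose and 5 fell with NTX-301, beside 11.6% and 18.3% of all genes higher and 12.6% and 19.2% lower. ACSL1, which activates long-chain fatty acids, rose in limma with both drugs, by 0.34 for decitabine (adjusted p = 6.78e-07) and 0.33 for NTX-301 (adjusted p = 3.23e-07). ACSL6, another synthetase, rose by 0.42 with NTX-301 (adjusted p = 2.47e-07). ACSL3, a synthetase found on lipid droplets, was -0.25 between NTX-301 and decitabine in HL-60 (adjusted p = 6.57e-07), where 3 genes were higher and 6 lower. In MOLM-13 2 were lower and 0 higher between the drugs, SLC25A1, the mitochondrial citrate carrier, at -0.23 (adjusted p = 0.00148) and HACD3, a dehydratase of elongation, at -0.14. Against DMSO in MOLM-13, as a description, ACSL3 stood lower with both drugs, at -0.48 and -0.55, and 10 and 12 of the 23 were past the threshold and lower, 2 and 3 higher. Of all genes there, 21.2% and 24.8% were lower and 15.4% and 20.3% higher with decitabine and NTX-301.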

How the data were processed

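Total RNA of 18 samples (2 lines, 3 conditions, 3 samples each) was sequenced, and 1 table per sample was deposited. The authors deposited log2 normalised values per gene; the normalisation method is not given in the sources used here, the values of the lines were normalised apart, and depth is unknown; whether changes of low genes were shrunk was not tested. Per the submitters' processing notes, FastQC, Trimmomatic 0.38, HISAT2, StringTie and hg19 were used, with no role or order stated.

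Genes with a log2 value of at least 0 in at least 3 of the 9 samples of a line were kept (17046 of 17110 in HL-60, all 17475 in MOLM-13). Each line was fitted on its own in limma 3.58.1 (R 4.3.3) on the deposited log2 values, with a mean per group, 6 residual degrees of freedom and a mean-variance trend, two-sided, adjusted by Benjamini-Hochberg over all genes, threshold 0.05; no pseudocount was added. The procedure was tested on simulated data. Members and lists were chosen with earlier results of these data known, so lists carry no set test, and decitabine and NTX-301 against DMSO in MOLM-13, which led to the choice, are described without p-values. FADS2 and SCD were in the fit between the drugs in MOLM-13 and among the members counted, and neither was called, but no p of theirs is used there.

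Values in every sample are given for FADS1, FADS2, SCD, INSIG1, SREBF1, SREBF2, ABCA1 and MYLIP and, per comparison, for the 3 highest and 3 lowest called members. From the other lists (SREBP processing and degradation, cholesterol trafficking and storage, isoprenoid branches, fatty acid activation, elongation and glycerolipids, fatty acid oxidation, LXR partners and other targets) counts are given, and at most the 2 largest called changes per comparison are named. A gene of the first of these lists is not reported here and was left out of its counts. The share among genes with a mean of at least 8 was added after seeing the data. Alternatives were other filters, scalings, variance models, a replicate block, single samples left out and a minimum change. All 38 analysed members matched RefSeq by gene ID.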

Additional observations from a re-analysis of the deposited data

Results flagged for a closer look

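For 8 pairs of gene and drug, every treated HL-60 sample lay on one side of the HL-60 controls and every treated MOLM-13 sample on the other side of the MOLM-13 controls. The difference between the lines was not tested in any of them, the lines were normalised apart, the stated doses differ, and the MOLM-13 values belong to the comparisons that chose the members. Given as the MOLM-13 change minus the HL-60 change on the log2 scale, decitabine gave -0.94 for FADS2 (0.23 in HL-60, -0.70 in MOLM-13), -0.82 for FADS1 (0.29 and -0.53), -0.59 for CYP51A1 (0.23 and -0.36), -0.48 for HMGCS1 (0.12 and -0.36), -0.36 for EBP (0.07 and -0.29) and -0.21 for ELOVL5 (0.06 and -0.15). NTX-301 gave -0.84 for FADS1 (0.30 and -0.54) and -0.32 for ELOVL6 (0.03 and -0.29). ELOVL6 was low in HL-60, with a mean log2 value of 4.73 in DMSO and 4.76 with NTX-301. In MOLM-13 its means were 11.92 and 11.63. In HL-60 the changes of ELOVL5 and ELOVL6 did not pass the threshold, and that of EBP was lost on leaving out any of 6 samples. How many of all genes lay on opposite sides in the 2 lines was not counted, so the 8 pairs have no background. Groups wholly apart were common within a line. With decitabine 3295 of 17046 HL-60 genes lay wholly above their controls, 3270 wholly below. The MOLM-13 counts for that drug were 4014 above, 4356 below, of 17475 genes.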

How the results depend on the processing

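Directions of called changes were kept under every alternative run, and the values below are those that moved. With a minimum change of 0.25 added to the threshold, HL-60 decitabine against DMSO had 1 member higher and 0 lower. HL-60 NTX-301 then had 1 and 6 against DMSO and 0 and 7 against decitabine. In MOLM-13, as a description, decitabine against DMSO had 1 higher and 20 lower and NTX-301 against DMSO 1 and 21. MOLM-13 NTX-301 against decitabine had 0 and 0. The share of all genes past this stricter threshold was not counted, so these counts have no background. Quantile normalisation gave 4 higher for NTX-301 against DMSO in each line, 1 higher for NTX-301 against decitabine in HL-60 and 2 in MOLM-13; it gave SREBP target medians of -0.060 for NTX-301 in HL-60, -0.23 for decitabine and -0.27 for NTX-301 in MOLM-13, and an LXR target median of -0.18 for NTX-301 in HL-60. Centring gave SREBP and LXR medians of -0.11 and -0.22 for NTX-301 against DMSO and -0.13 and -0.24 for NTX-301 against decitabine in HL-60, and of -0.31 and -0.15 for decitabine and -0.37 and -0.10 for NTX-301 in MOLM-13. Without the mean-variance trend, or with the 2 compared groups alone, 0 members were higher between the drugs in MOLM-13. Changes not past the threshold that crossed 0 were SREBF1 with decitabine in HL-60 (0.00018 with quantile normalisation), FADS2 with NTX-301 in HL-60 (-0.019 centred, -0.031 quantile), FADS1 between the drugs in HL-60 (-0.023 centred, -0.0019 quantile) and FADS1 between the drugs in MOLM-13 (0.0058 quantile). Among the values given as a description, SREBF2 with decitabine in MOLM-13 was -0.018 centred and 0.11 with quantile normalisation, which gave 0.13 with NTX-301.

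Leaving out each of the 9 samples of a line in turn gave these ranges for members higher and lower. In HL-60 they were 5 to 7 and 3 to 5 for decitabine against DMSO, and 2 and 19 to 21 for NTX-301 against DMSO. NTX-301 against decitabine gave 0 and 18 to 21 in HL-60, and 0 to 1 and 1 to 4 in MOLM-13. The counts against DMSO in MOLM-13 are a description only, from which nothing is read. They were 2 and 28 to 29 with decitabine, and 2 and 29 to 30 with NTX-301. The share of all genes called in each of these fits was not counted. The medians of SREBP and LXR targets then ranged from -0.0048 to 0.0036 and 0.011 to 0.031 for HL-60 decitabine against DMSO, -0.11 to -0.070 and -0.20 to -0.18 for HL-60 NTX-301 against DMSO, -0.12 to -0.096 and -0.22 to -0.20 for HL-60 NTX-301 against decitabine, -0.29 to -0.26 and -0.12 to -0.099 for MOLM-13 decitabine against DMSO, -0.37 to -0.31 and -0.081 to -0.054 for MOLM-13 NTX-301 against DMSO, -0.047 to -0.017 and 0.033 to 0.060 for MOLM-13 NTX-301 against decitabine. Single members given in every sample that crossed 0 were SREBF1 with decitabine in HL-60 (-0.042 to 0.029), FADS2 with NTX-301 in HL-60 (-0.012 to 0.041), FADS1 between the drugs in HL-60 (-0.0072 to 0.021), and FADS1 (-0.037 to 0.032) and SREBF2 (-0.0028 to 0.026) between the drugs in MOLM-13, and, as a description, SREBF2 with decitabine (-0.0068 to 0.057) and ABCA1 with NTX-301 (-0.043 to 0.043) there. The causes were not tested.

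No pairing by replicate number was seen: deviations of same-numbered samples correlated at -0.057 to 0.12 in HL-60 and -0.16 to 0.11 in MOLM-13. Those of different-numbered samples correlated at -0.12 to 0.11 and -0.12 to 0.16. The labels do not say whether the numbers match cultures across groups. With the number as a block, 5 members were higher and 5 lower for decitabine in HL-60 (EBP was lost), 2 and 20 for NTX-301, 0 and 20 between the drugs, and 0 and 3 between the drugs in MOLM-13, where LPIN1 was lost.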

Other observations

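The side branches of the mevalonate stage, 10 genes for geranylgeranyl, dolichol and ubiquinone synthesis and for prenylation, were counted in HL-60. With decitabine 0 rose and 2 fell, beside 11.6% of all genes higher and 12.6% lower. With NTX-301 0 rose and 4 fell, beside 18.3% and 19.2%. Between the drugs 2 were higher and 3 lower with NTX-301, beside 15.4% and 15.0%. NUS1, a subunit of the dolichol prenyltransferase, changed by -0.22 with NTX-301 (limma, adjusted p = 1.19e-05), and GGPS1, the geranylgeranyl diphosphate synthase, by -0.13 with decitabine (adjusted p = 0.014). In MOLM-13, 1 of the 10, PDSS1, was lower between the drugs and 0 were higher. As a description, 6 and 7 of the 10 were past the threshold and lower against DMSO in MOLM-13 with decitabine and NTX-301. The shares of all genes lower there were 21.2% and 24.8%.

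Fatty acid oxidation, the opposite of synthesis, was counted over 10 genes. In HL-60, 0 rose and 2 fell with decitabine, 2 rose and 3 fell with NTX-301, and 2 were higher and 1 lower with NTX-301 than with decitabine, counts near the shares of all genes just given. CPT1A, which passes long-chain fatty acids into mitochondria, fell with both drugs in limma, by 0.22 for decitabine (adjusted p = 4.83e-06) and by 0.18 for NTX-301 (adjusted p = 9.86e-06). Between the drugs in MOLM-13 0 of the 10 passed in limma, and 1 higher and 2 lower had an unadjusted p under 0.05. Of all 17475 genes, 1771 were higher and 2237 lower at that unadjusted level. Against DMSO there, as a description, 1 was higher and 2 lower with decitabine, beside 15.4% and 21.2% of all genes. With NTX-301 0 were higher and 2 lower, beside 20.3% and 24.8%.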
